A study of Mus musculus with 20 samples.

Results

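The tissue inhibitors of metalloproteinases and the genes of the plasminogen activator system are described here in mouse renal myofibroblasts with and without WWP2. The set held 8 genes chosen by name. They are the inhibitors Timp1, Timp2, Timp3 and Timp4, the plasminogen activators Plau and Plat, the urokinase receptor Plaur and the protease inhibitor Serpine2. All 8 were found among the 51826 genes of the count table, and all 8 were among the 20407 genes with enough counts to be tested.

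The data were 20 libraries of poly-A RNA from primary renal myofibroblasts of C57BL/6J mice, 5 in each of 4 groups. The groups were untreated wild-type (WT) cells, WT cells treated with TGFβ1, untreated cells of the WWP2 knockout (WWP2-/-), and WWP2-/- cells treated with TGFβ1. The cells had grown out of minced kidney pieces and were passaged before use, so they were a primary outgrowth and not a sorted population, and the knockout was carried by the whole animal. According to the study, TGFβ1 was given for several days. The labels do not give its dose or duration for each library, the age or sex of the mice, nor whether the libraries of a group came from separate mice, so the P values measure the spread between these libraries.

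TIMPs bind the active site of matrix metalloproteinases and of related ADAM and ADAMTS proteases and so limit the breakdown of the extracellular matrix. Plau (urokinase) and Plat (tissue plasminogen activator) cleave plasminogen to plasmin, which digests fibrin and activates several metalloproteinases. Plaur holds urokinase at the cell surface, and Serpine2 (protease nexin-1), a serpin, blocks the activators. In fibrotic kidney the TIMPs and the inhibitors of the activators are studied as brakes on matrix turnover, and Timp1 is a textbook target of TGFβ signaling.

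Levels are given in CPM, which are counts divided by the size of the library after scaling between libraries by the TMM method of edgeR. Totals were between 47520759 and 73063697 counts per library. Differences are log2 fold changes from edgeR's quasi-likelihood test with all 20 libraries in 1 fit, and a gene was called at an adjusted P below 0.05 after Benjamini–Hochberg adjustment over all 20407 genes.

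Wwp2 itself was lower in every WWP2-/- library than in any WT library, with a log2 fold change of −1.49 with TGFβ1 (adjusted P = 1.05e-08, edgeR). Its transcripts were still counted, at 20.5±1.62 CPM (SD, n=5) in untreated knockout cells. A pair of WWP2-/- libraries stood apart from all others. In untreated replicate 3 and TGFβ1-treated replicate 1, Acta2, which encodes the smooth muscle actin that defines myofibroblasts, was at 38.9 and 50.4 CPM, against at least 1016 CPM in the other 18 libraries. Each was the other's nearest library. Xist, which is made from the silenced X chromosome in females, was above 1 CPM in 4 of 5 WT libraries in both conditions, but in 2 of 5 untreated and 1 of 5 treated WWP2-/- libraries. Of the libraries with Xist, 3 untreated WT, 1 treated WT and 1 untreated WWP2-/- library also held Y-linked transcripts (sum of 4 genes above 1 CPM), so libraries with Xist are not the same as libraries without Y-linked transcripts. Fibroblast markers were present in all libraries, with a sum over 10 genes between 4293 and 33959 CPM. Not all 10 were above 1 CPM in every library, and in treated WT replicate 3 only 6 were. The sum over 10 macrophage markers was between 78.7 and 3866 CPM, that over 10 tubular markers between 15.6 and 657 CPM and that over 10 endothelial markers at most 194 CPM. Between genotypes with TGFβ1, 9 of 10 fibroblast markers had a negative estimate (median −2.12, 2 called lower), and all 7 tubular markers tested had a positive one (median 2.02, 0 called, edgeR). Of 10 endothelial markers, 8 had a positive estimate and 2 were called lower. Of all genes tested, 3.96% were called lower. Results are therefore given also without the pair of libraries with low Acta2 and with Xist as a covariate.

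The start-site sequences of the genes that came nearest to the threshold between genotypes, Timp1, Timp2 and Plaur, are shown to give their regulatory context. Each line holds the 250 bases before the RefSeq start on GRCm38.p6, 5′ to 3′ on the strand of the gene. These windows are chrX:20869916-20870165 (plus strand) for Timp1, chr11:118355412-118355661 (minus strand) for Timp2 and chr7:24462233-24462482 (plus strand) for Plaur. The capitals in Plaur mark a match to the AP-1 motif.
Timp1: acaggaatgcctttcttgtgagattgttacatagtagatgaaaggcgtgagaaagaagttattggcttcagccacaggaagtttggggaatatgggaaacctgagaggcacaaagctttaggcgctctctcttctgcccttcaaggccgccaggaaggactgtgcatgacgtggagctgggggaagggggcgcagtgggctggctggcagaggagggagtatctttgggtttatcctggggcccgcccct
Timp2: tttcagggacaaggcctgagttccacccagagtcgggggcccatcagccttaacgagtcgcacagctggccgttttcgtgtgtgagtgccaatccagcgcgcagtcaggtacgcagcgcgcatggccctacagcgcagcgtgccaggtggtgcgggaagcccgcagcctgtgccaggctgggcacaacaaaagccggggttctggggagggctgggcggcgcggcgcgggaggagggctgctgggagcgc
Plaur: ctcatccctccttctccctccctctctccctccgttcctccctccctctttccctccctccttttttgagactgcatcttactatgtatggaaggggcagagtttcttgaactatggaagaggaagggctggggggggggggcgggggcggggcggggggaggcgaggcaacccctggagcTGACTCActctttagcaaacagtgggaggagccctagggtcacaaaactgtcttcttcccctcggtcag

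Both strands were searched for the AP-1 motif TGANTCA, the Smad motif CAGACA and the GC box GGGCGG. Of the members, 6 had a window in the RefSeq table, namely the 4 TIMPs, Serpine2 and Plaur. The AP-1 motif was found once, in Plaur, 69 bases before the start, and 6.75% of 32851 windows of the same length held it. The Smad motif, in 17.1% of all windows, was in none of the 6. The GC box, in 32.7% of all windows, occurred 6 times in Serpine2, 3 times in Plaur and once each in Timp1, Timp2 and Timp3. A match is a description of the letters in this window only.

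Levels of different genes were compared as CPM per kilobase of exon. Timp2 was the most abundant member in every group, with means of 628 CPM per kilobase in untreated WT and 701 in treated WT cells, and 445 and 397 in WWP2-/- cells. Timp1 was next, at 128 and 177 in WT and at 236 and 293 in WWP2-/- cells. In WT cells the libraries of Timp2 and Timp1 did not overlap in either condition. In WWP2-/- cells they did, because Timp1 exceeded Timp2 in the library with low Acta2 of each condition.

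The activators ranked below these inhibitors. Plat was at 51.4, 53.1, 63.1 and 54.0 CPM per kilobase in untreated WT, treated WT, untreated WWP2-/- and treated WWP2-/- cells. Plau was at 36.5, 24.9, 30.2 and 23.0 in the same order, and was below Plat in every library of both genotypes. Timp3 came after Timp1 in WT cells (67.7 and 95.5) and lower in WWP2-/- cells (29.7 and 46.2), where its range overlapped those of Plat and Plau. Serpine2 and Plaur were last among the well-detected genes, between 11.2 and 26.7 on average, and overlapped in every group. Timp4 was close to the limit of detection, with between 0 and 22 counts per library.

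**Figure D1:**
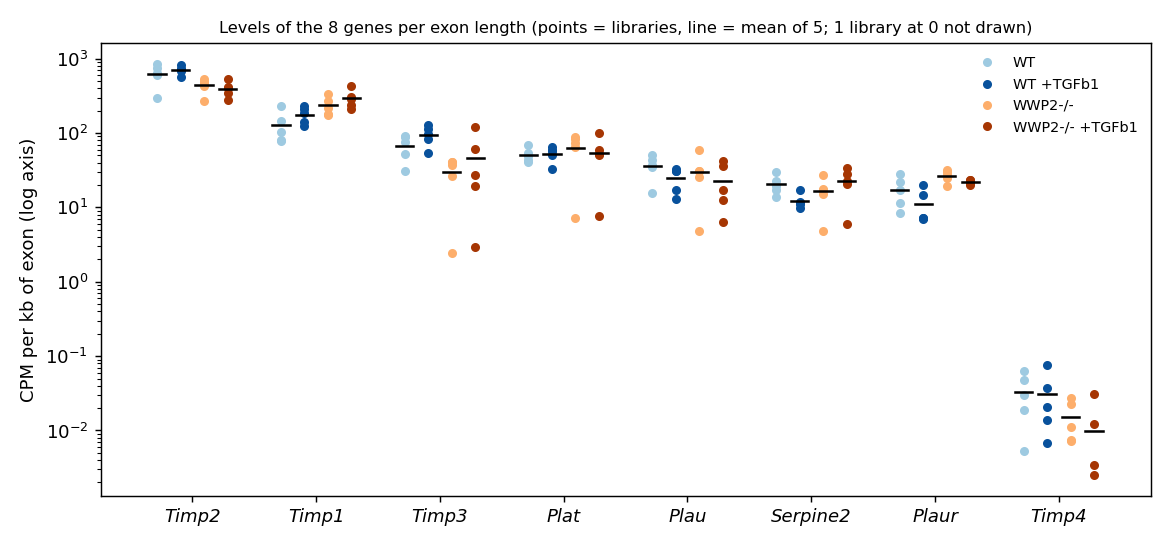
Levels of the 8 genes in CPM per kilobase of exon on a log axis, with a point for each library, colors for the 4 groups and a line at the mean of 5 libraries. Timp2 had the highest mean in every group, and Timp4 lay far below the other genes. The library without a Timp4 count is not drawn.

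TGFβ1 changed none of the members detectably in a fit that took treated and untreated libraries as unpaired. Whether these libraries shared cultures is not known. Of 8 members, 0 were called by edgeR in WT cells and 0 in WWP2-/- cells, where 0% of all genes tested were called in each. At an unadjusted P below 0.05 the members numbered 0 in each genotype, the genes tested 1397 in WT and 713 in WWP2-/- cells, and the Wald test of DESeq2 called 0 members and 27 and 49 genes. No member separated treated from untreated libraries, against 1.35% of all genes in WT and 0.377% in WWP2-/- cells. A hand-written list of 12 genes known to respond to TGFβ1 had a positive estimate for 12 of 12 in WT cells (median log2 fold change 0.52) and for 8 of 12 in WWP2-/- cells (median 0.17), and none of these was called.

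Serpine2 came closest to a separation by treatment. In WT cells it was at 142, 163, 191, 248 and 114 CPM in untreated replicates 1 to 5. With TGFβ1 it was at 99.0, 80.9, 142, 95.1 and 93.0 CPM. Thus 4 of 5 treated libraries lay below all untreated ones, and the highest treated library, replicate 3, lay among them. The log2 fold change was −0.75 (95% interval −1.57 to 0.08, adjusted P = 0.793, edgeR). Timp1, at 114±56.5 CPM untreated and 157±39.8 CPM treated in WT cells (SD, n=5 each), had an estimate of 0.46 (interval −0.14 to 1.07) that did not pass. Plaur was estimated at −0.63 in WT cells (interval −1.29 to 0.03).

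**Figure D2:**
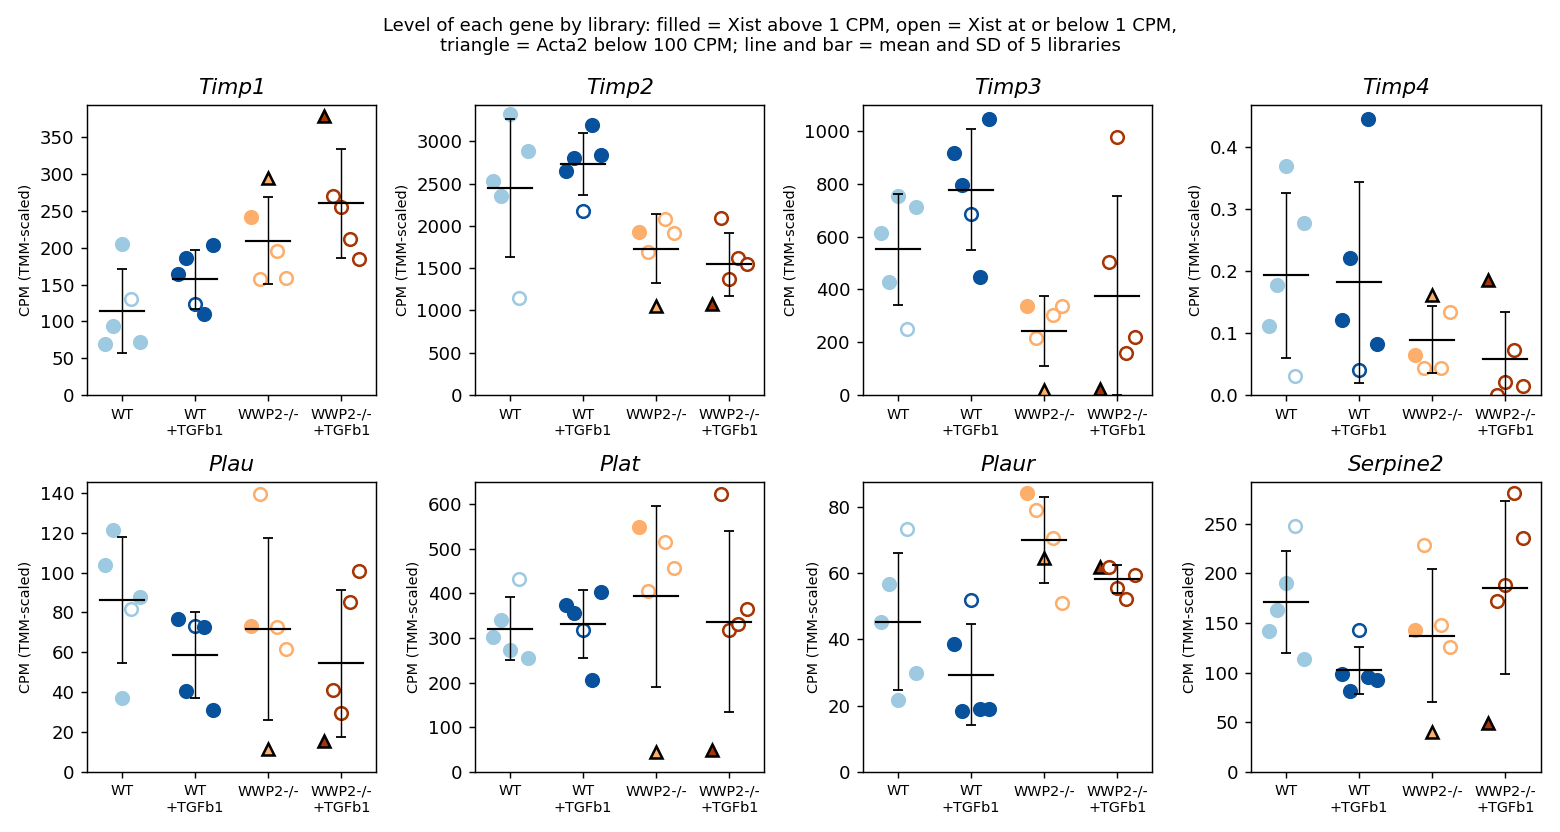
CPM of each gene in each library by group, with the mean and SD of 5 libraries as line and bar (bars end at 0). Filled points have Xist above 1 CPM and triangles mark the 2 libraries with low Acta2. These were the lowest of their groups for Timp2, Timp3, Plau, Plat and Serpine2 and the highest for Timp1 and Timp4.

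Between genotypes the members pointed in different directions. With TGFβ1, the estimate was higher in WWP2-/- cells for Timp1, Serpine2, Plat and Plaur and lower for Timp2, Timp3, Timp4 and Plau. Of 8 members, 0 were called by edgeR, where 6.07% of all genes tested were called. At an unadjusted P below 0.05 there were 4 (Timp1, Timp2, Serpine2 and Plaur) against 5035 of all genes, and DESeq2's Wald test called 2, Timp2 and Plaur, and 2672 genes in all. In untreated cells 0 of 8 were called, where 0.725% of all genes were. Here 1 member, Timp1, and 3044 genes had an unadjusted P below 0.05, and DESeq2 called 0 members. None of the 8 separated the untreated genotypes, against 2.79% of all genes. Because RNA was taken from bulk cultures, fewer cells of a type and less RNA per cell cannot be told apart.

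Timp2 (ENSMUSG00000017466, chr11:118301069-118355740, minus strand of GRCm38), which inhibits metalloproteinases and also takes part in the activation of pro-MMP2 by MMP14, was lower in all treated WWP2-/- libraries. With TGFβ1 the WT libraries had 2645, 2802, 2182, 3191 and 2835 CPM in replicates 1 to 5. The WWP2-/- libraries had 1081, 2095, 1368, 1626 and 1555 CPM. No WWP2-/- library reached the lowest WT library, and 5.67% of all genes tested were separated by genotype, 3.08% with lower values in WWP2-/- cells. The difference was −0.82 on the log2 scale (SE 0.250, 95% interval −1.35 to −0.30) and missed the threshold narrowly (adjusted P = 0.0574, edgeR). The exact two-sided permutation test for this gene alone gave P = 0.00794, the smallest that 5 libraries against 5 allow. Timp2 was called in 1 of 10 fits that left out 1 library, that without WT replicate 3, the lowest of its group (−0.89, adjusted P = 0.0345, edgeR), in which 2702 genes were called. The estimate with Xist as a covariate was −0.79 (adjusted P = 0.128, edgeR).

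In untreated cells Timp2 was at 2533, 2355, 3321, 1142 and 2886 CPM in WT replicates 1 to 5. In WWP2-/- cells it was at 1925, 1691, 1050, 2080 and 1917 CPM. The groups overlapped only through WT replicate 4, which lay below all but 1 WWP2-/- library, and the log2 fold change was −0.50 (adjusted P = 0.353, edgeR). That WT library was also 1 of the 2 WT libraries without Xist, and both had the lowest Timp2 of their groups. Among untreated WT libraries the fibroblast marker sum moved with Timp2: it was 4649 CPM in that library and 14805 to 20971 CPM in the others. With TGFβ1 the marker sum was between 10673 and 33959 CPM in WT and between 5271 and 13208 CPM in WWP2-/- cells. Here it followed Timp2 within groups only in part. The lowest sum and the lowest Timp2 were in the same library, WT replicate 3 (10673 and 2182 CPM) and WWP2-/- replicate 1 (5271 and 1081 CPM). This was also so in untreated WWP2-/- cells, in replicate 3 (4293 and 1050 CPM). The order of the other treated libraries differed. WWP2-/- replicate 3 had the highest sum of its group, but its Timp2 (1368 CPM) was above only that of replicate 1. WT replicate 4 had the highest Timp2 of its group (3191 CPM), but its sum (24083 CPM) was above only that of replicate 3. The part of these markers in the difference was not tested.

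Timp1 (ENSMUSG00000001131), a broad secreted inhibitor, went the other way. In untreated cells it was at 69.6, 93.0, 205, 131 and 71.6 CPM in WT replicates 1 to 5. The WWP2-/- libraries had 242, 158, 294, 196 and 159 CPM. Only WT replicate 3 lay within the WWP2-/- range, and the log2 fold change was 0.88 (SE 0.289, interval 0.27 to 1.49, adjusted P = 0.174, edgeR). With TGFβ1 the WT libraries had 164, 185, 124, 110 and 203 CPM. The WWP2-/- libraries had 378, 270, 255, 211 and 185 CPM. All but replicate 5 lay above every WT library, for a log2 fold change of 0.73 (SE 0.288, interval 0.12 to 1.33, adjusted P = 0.130, edgeR).

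Timp1 lies on the X chromosome (chrX:20870166-20874735, GRCm38, plus strand), inside an intron of Syn1, which runs on the minus strand and shares no exonic base with it. Libraries with and without Xist were therefore also compared apart. Among untreated libraries with Xist, WT cells were between 69.6 and 205 CPM and WWP2-/- cells between 242 and 294 CPM. Among those without it, the single WT library was at 131 CPM and the WWP2-/- libraries between 158 and 196 CPM. With TGFβ1, WT libraries with Xist were between 110 and 203 CPM and the single WWP2-/- library at 378 CPM. Without Xist, WT was at 124 CPM and WWP2-/- between 185 and 270 CPM. Timp1 was higher in WWP2-/- cells in each of these 4 comparisons, several of which rest on 1 library. The treated WWP2-/- library with Xist and the higher of the untreated ones were the pair with low Acta2. Without that pair the estimate was 0.71 untreated (adjusted P = 0.188) and 0.55 with TGFβ1 (interval −0.03 to 1.14, adjusted P = 0.171, edgeR). With Xist as a covariate the estimate was 1.02 untreated (adjusted P = 0.0848) and 0.98 with TGFβ1 (adjusted P = 0.0626, edgeR).

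The opposite directions of Timp1 and Timp2 were also read within each library, as the share of Timp1 in the summed CPM per kilobase of the 4 TIMPs, which does not depend on the scaling between libraries. This share was chosen after the values were seen and is a description. With TGFβ1 it was between 12.4% and 21.1% in WT (mean 18.1%±3.45, SD, n=5) and between 32.8% and 60.3% in WWP2-/- libraries (40.0%±11.5, SD, n=5), without overlap. Untreated it was between 8.87% and 31.3% in WT (16.7%±9.20, SD, n=5) and between 25.1% and 54.9% in WWP2-/- libraries (33.9%±12.2, SD, n=5). Only untreated WT replicate 4, at 31.3%, fell within the WWP2-/- range. The pair with low Acta2 had the highest shares, and the next highest were 33.8% untreated and 37.9% with TGFβ1.

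**Figure D3:**
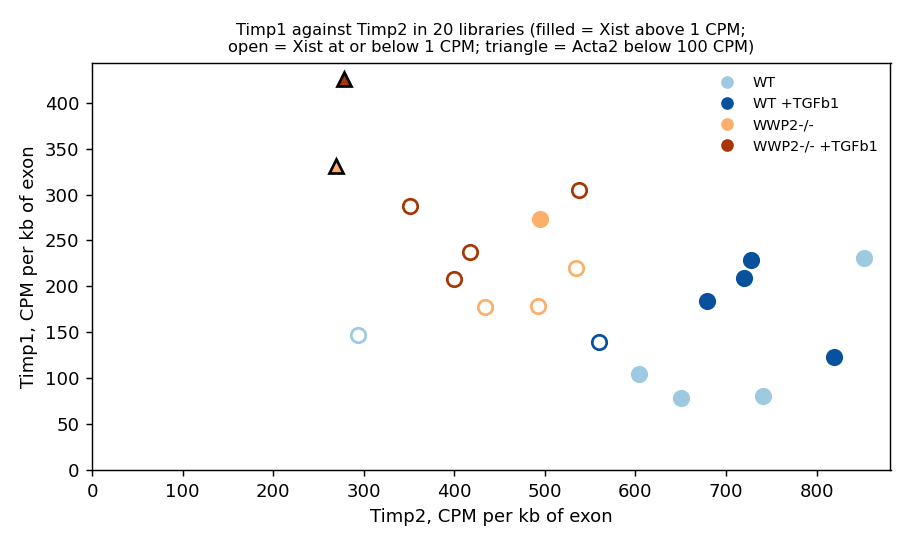
Timp1 against Timp2 in CPM per kilobase of exon for 20 libraries, with symbols as in the plot by group. WWP2-/- libraries lie to the upper left and most WT libraries to the lower right, and the untreated WT library without Xist (open light blue) has the lowest Timp2 of the libraries with Acta2 above 100 CPM.

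Timp3 (ENSMUSG00000020044, chr10:86300372-86349506, plus strand), the matrix-bound inhibitor, had lower estimates in WWP2-/- cells with wide intervals. With TGFβ1 it was at 917, 793, 684, 446 and 1047 CPM in WT and at 24.2, 503, 976, 158 and 220 CPM in WWP2-/- replicates 1 to 5. The WWP2-/- libraries were the more spread and the highest of them lay among the WT libraries, and the estimate of −1.05 (interval −2.51 to 0.41, adjusted P = 0.372, edgeR) did not pass. Untreated, WT cells were between 251 and 754 CPM and WWP2-/- cells between 19.8 and 337 CPM (−1.19, adjusted P = 0.433). Timp3 lies inside Syn3 on the opposite strand and shares 1733 exonic bases with it, 21.3% of its own exonic length. The strand setting of the counting is not given in the sources used here, so reads of the shared part cannot be told apart. Syn3 was low, with group means between 0.785 and 1.53 CPM.

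Timp4 (ENSMUSG00000030317, chr6:115241892-115252205, minus strand), which lies inside Syn2 on the opposite strand, had a mean of 0.181 CPM in treated WT and 0.0584 CPM in treated WWP2-/- cells. The counts were 6, 11, 2, 22 and 4 in WT and 11, 0, 1, 4 and 1 in WWP2-/- replicates 1 to 5, where a count of 0 allows up to 3 counts. At this depth no difference was detectable with all libraries (log2 fold change −1.60, interval −3.31 to 0.11, adjusted P = 0.232, edgeR).

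Plaur (ENSMUSG00000046223, chr7:24462484-24475968, plus strand), the receptor that focuses urokinase on the cell surface, was the member with the largest positive difference with TGFβ1. The WT libraries had 38.7, 18.2, 51.8, 18.8 and 18.9 CPM. The WWP2-/- libraries were close together, at 61.9, 61.7, 55.5, 52.0 and 59.3 CPM. The groups touched without overlapping, since WT replicate 3 lay just below the lowest WWP2-/- library, and 2.59% of all genes were separated with higher values in WWP2-/- cells. Scaled by library totals in place of TMM, the groups of Plaur overlapped and those of Timp1 did not. The count of separated members was thus 2 of 8 either way, against 5.67% of all genes with TMM. The share of all genes with library totals was not counted. The log2 fold change was 0.99 (SE 0.315, interval 0.33 to 1.65), with an adjusted P of 0.0666 (edgeR) and an exact two-sided permutation P of 0.00794. It was called in 1 of 10 fits that left out 1 library, again that without WT replicate 3, the highest of its group (1.30, adjusted P = 0.0117, edgeR). Untreated, Plaur was at 45.3, 56.7, 21.7, 73.4 and 29.7 CPM in WT and at 84.1, 79.1, 64.6, 70.7 and 50.8 CPM in WWP2-/- cells. These groups overlapped and the estimate was 0.62 (interval −0.03 to 1.28, adjusted P = 0.356, edgeR).

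In both conditions the WT library without Xist had the highest Plaur of its group and lay within or just below the WWP2-/- range. Without Xist the levels were 73.4 CPM in WT and 50.8 to 79.1 CPM in WWP2-/- cells untreated, and 51.8 CPM and 52.0 to 61.7 CPM with TGFβ1. With Xist as a covariate the estimate with TGFβ1 was 0.78 (adjusted P = 0.130, edgeR). The part of Xist-positive and Xist-negative cells in the difference was not tested beyond this, and with 1 such WT library in a condition it cannot be told apart from that library. Of 10 macrophage markers, 10 had a positive estimate with TGFβ1 and 0 were called (edgeR). Their sum was between 78.7 and 434 CPM in WT and between 90.9 and 3442 CPM in WWP2-/- cells. Among untreated WT libraries Plaur and this sum had the same order, from replicate 3 (21.7 and 155 CPM) to replicate 4 (73.4 and 3866 CPM). With TGFβ1 they did not. WT replicate 4 broke the order, at 18.8 and 314 CPM. In WWP2-/- cells replicate 1 had the highest Plaur (61.9 CPM) and the lowest sum (90.9 CPM). Replicate 4 of those cells had the lowest Plaur (52.0 CPM) and the highest sum (3442 CPM). The part of these markers in the result was not tested.

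The activators had estimates near 0 with wide intervals. Plau (ENSMUSG00000021822, chr14:20836660-20843385, plus strand), the ligand of Plaur, was at 76.9, 40.4, 73.1, 72.9 and 30.8 CPM in treated WT and at 15.3, 40.8, 29.5, 85.4 and 101 CPM in treated WWP2-/- libraries, with an estimate of −0.11 (interval −1.22 to 0.995). Plat (ENSMUSG00000031538, chr8:22757727-22782844, plus strand) was at 374, 356, 318, 206 and 403 CPM in treated WT and at 47.8, 622, 318, 331 and 366 CPM in treated WWP2-/- libraries, with an estimate of 0.03 (interval −1.07 to 1.12). The genotypes overlapped for both genes. The interval of Plat held a 2-fold change in either direction, and that of Plau a 2-fold fall. Without the pair of libraries with low Acta2 the intervals were narrower. The estimates were then 0.11 for Plau (interval −0.73 to 0.95) and 0.30 for Plat (interval −0.15 to 0.76). Untreated, Plat was at 0.30 with all libraries (interval −0.80 to 1.39). Without the pair it was at 0.56 (interval 0.11 to 1.02, adjusted P = 0.178, edgeR).

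Serpine2 (ENSMUSG00000026249, chr1:79794197-79861180, minus strand), which inhibits thrombin as well as the activators, was split by the library with low Acta2. With TGFβ1 the WWP2-/- libraries had 49.0, 172, 189, 280 and 236 CPM. All but replicate 1 lay above the WT libraries, which were between 80.9 and 142 CPM. With all libraries the estimate was 0.86 (SE 0.396, interval 0.03 to 1.69, adjusted P = 0.187, edgeR). Without WWP2-/- replicate 1 it was 1.09 (adjusted P = 0.0452, edgeR), in a fit in which 2036 genes were called. This was the only call of Serpine2 in 10 fits that left out 1 library. The direction turned with Xist as a covariate (−0.0378, adjusted P = 0.959, edgeR). In untreated cells the estimate was −0.32 (interval −1.15 to 0.50). The test of the difference between the conditions, the interaction of genotype and TGFβ1, gave 1.18 for Serpine2 (interval 0.01 to 2.35, unadjusted P = 0.0478, adjusted P = 0.707, edgeR). By this test 0 of 8 members and 0% of all genes were called, with 1 member and 1424 genes at an unadjusted P below 0.05 and 0 members and 10 genes called by DESeq2.

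The pair of WWP2-/- libraries with low Acta2 set the lower end for several members. Timp3 was 10.8-fold (untreated) and 6.54-fold (treated) below the lowest other WWP2-/- library of its group, Plat 9.05-fold and 6.66-fold, and Plau 5.40-fold and 1.93-fold. Serpine2 was 3.12-fold and 3.52-fold below it. Timp2 was 1.61-fold and 1.26-fold below, whereas Timp1 was the highest of its group in both. Timp4 was also the highest of its group in both, at 8 and 11 counts. Plaur, at 64.6 and 61.9 CPM, stayed close to the range of the others (50.8 to 84.1 and 52.0 to 61.7 CPM).

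Without this pair, a choice made after the values were seen, 3 of 8 members were called with TGFβ1 by edgeR, where 16.9% of all genes were called. Serpine2 was higher in WWP2-/- cells by 1.09 (SE 0.225, adjusted P = 0.00931), with all 4 remaining libraries above all 5 WT libraries. The log2 fold change of Timp2 was −0.72 (SE 0.238, adjusted P = 0.0468). That of Timp4, at 0 to 4 counts in the remaining WWP2-/- libraries, was −2.71 (SE 0.883, adjusted P = 0.0450). The treated library left out held 11 counts of Timp4, the most of its group. In untreated cells 0 members were called without the pair, against 1.32% of all genes. With Xist as a covariate as well, 0 of 8 members passed and 5 genes in all did with TGFβ1, and Serpine2 and Timp2 were then at 0.61 (adjusted P = 0.545) and −0.18 (adjusted P = 0.937).

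**Figure D4:**
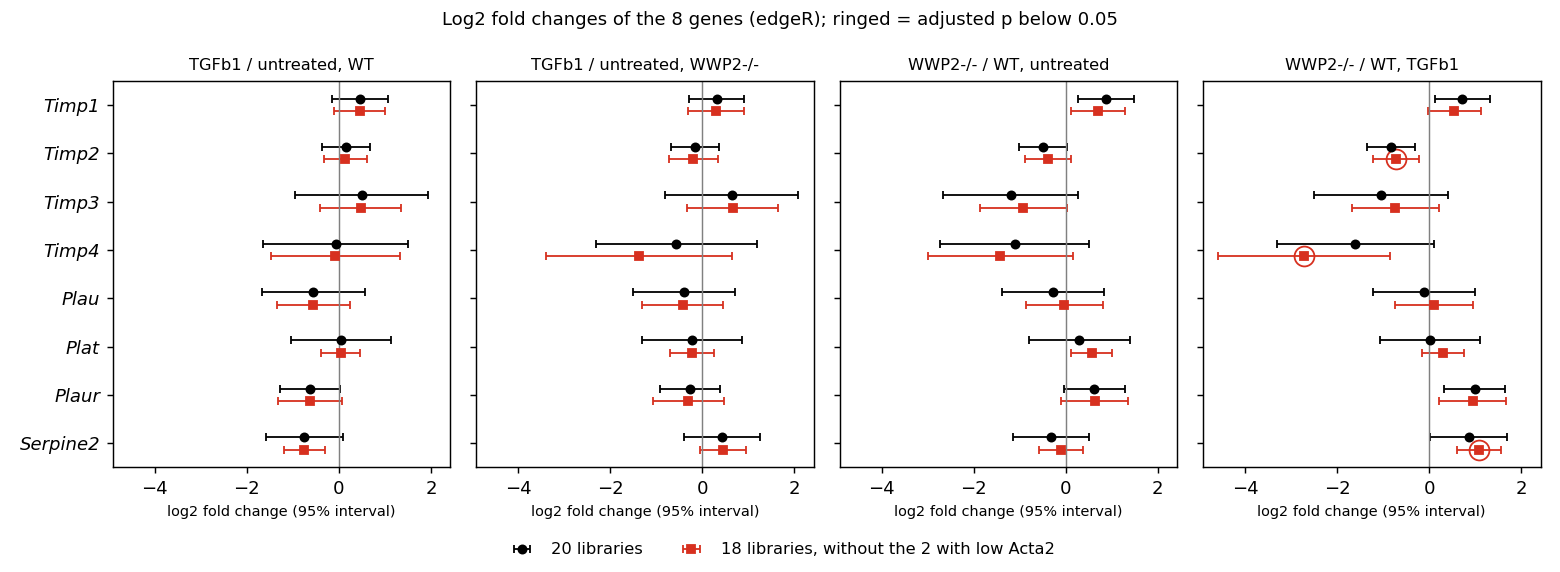
Log2 fold changes (edgeR) of the 8 genes with their 95% intervals in 4 comparisons, from all 20 libraries (black) and from the 18 libraries without the pair with low Acta2 (red). Rings mark an adjusted P below 0.05, which occurs only for Timp2, Timp4 and Serpine2 in WWP2-/- against WT with TGFβ1 without that pair.

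Across the 20 libraries Plat varied with Timp3, Serpine2 and Plau, and Serpine2 with Plau, but this rested on the same pair. The Pearson correlation of log2 CPM was 0.74 between Timp3 and Plat, 0.72 between Serpine2 and Plat and 0.69 between Serpine2 and Plau. Without the pair, the correlation over 18 libraries was −0.29, 0.18 and 0.31 for these. Plau and Plat were correlated at 0.66 over all libraries and at −0.09 without the pair. Timp3 was less correlated with Serpine2 (0.40) and Plau (0.43) over all libraries. Without the pair these were negative, at −0.67 and −0.62. Timp2 and Timp3 were correlated at 0.76 over all libraries and at 0.59 without the pair, and Timp1 and Timp2 at −0.52 over all and at −0.30 without it. Some negative correlations stayed without the pair. Timp2 and Plaur were at −0.74 over all, −0.78 without the pair and −0.56 with group means removed. Timp1 and Plau were at −0.71, −0.59 and −0.76 in the same order. Timp4, at few counts, and Plaur were at −0.70, −0.75 and −0.69. These values share their libraries and depth and are descriptions.

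Among 13518 genes with a mean of at least 1 CPM, the genes most like each member over the 20 libraries were taken by Pearson's r of log2 CPM. They were Arxes2 (0.97) and Cavin1 (0.94), a caveolar coat gene, for Timp2, Cdon (0.96) and Vav2 (0.96) for Timp3, and Timm29 (0.85) and Zfp574 (0.84) for Timp1. For the plasminogen genes they were Nrp1 (0.96) and Lgr4 (0.96) for Plat, Acaa1b (0.92) and Rgs6 (0.92) for Plau, Dtnb (0.94) and Tbc1d9 (0.93) for Plaur, and Rprm (0.96) and Zfand1 (0.96) for Serpine2. Without the pair with low Acta2, r fell for Nrp1 with Plat to 0.76 and for Cdon with Timp3 to 0.84. The tubular marker Cdh16, named after its values were seen, was the fifth gene for Plau (0.91, and 0.81 without the pair).

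The partners of the members were described from hand-written lists. Of 22 genes around the plasminogen activators (substrate, inhibitors, receptors and binding partners), 18 were tested. With TGFβ1, 1 was called, Mrc2, which was lower in WWP2-/- cells (5.56%), against 2.1% of all genes higher and 3.96% lower, with a median log2 fold change of −0.13 against 0.05 over all genes. Mrc2, a collagen receptor that associates with Plaur, fell by 1.93 (SE 0.540, adjusted P = 0.0416, edgeR), from 962±430 to 252±125 CPM (SD, n=5 each). With Xist as a covariate it was at −0.88 and not called, and it was called in 3 of the 10 fits that left out 1 library (−2.18 to −1.76). Plg, the plasminogen gene itself, was not tested, at no more than 0.0368 CPM in any library. In untreated cells, 0 of the 18 were called by edgeR, against 0.725% of all genes, and 1, Serpinb2, by DESeq2, against 743 genes in all. Serpinb2 was at 22.0 CPM in the untreated WWP2-/- library with low Acta2, at 3.65 CPM in replicate 1 and at no more than 0.301 CPM in the other 3.

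Of 22 metalloproteinases and related targets or partners of TIMPs, all 22 were tested. With TGFβ1, 1 was called higher and 4 lower in WWP2-/- cells (22.7% in all), against 6.07% of all genes, 2.1% higher and 3.96% lower, with a median log2 fold change of −0.06. Mmp9, a gelatinase, rose by 5.18 (SE 1.15, adjusted P = 0.0158, edgeR), from between 0.202 and 0.898 CPM in WT to between 1.88 and 48.3 CPM in WWP2-/- libraries, the highest being the library with low Acta2. Mmp11 fell by 2.52 (adjusted P = 0.0147) and the membrane-anchored Mmp23 by 1.88 (adjusted P = 0.0138). The aggrecanase Adamts5 fell by 2.34 (adjusted P = 0.0121), from 1218±597 to 241±32.5 CPM (SD, n=5 each). Reck, a membrane inhibitor of metalloproteinases, fell by 2.13 (SE 0.418, adjusted P = 0.0115), from 81.9±26.7 to 18.6±7.36 CPM (SD, n=5 each). The fibroblast markers moved in the same direction as the 4 genes that fell (median −2.12) and opposite to Mmp9. Untreated WT replicate 4, with the lowest fibroblast marker sum of its group, was also the lowest of its group for Reck (11.6 CPM), Adamts5 (265 CPM), Mmp23 (19.2 CPM), Mmp11 (40.1 CPM) and Mrc2 (78.0 CPM). The part of these markers was not tested.

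With Xist as a covariate Mmp9, Mmp23 and Reck were still called and Mmp11 and Adamts5 were not (adjusted P = 0.0581 and 0.116, edgeR). The main gelatinase of these cells, Mmp2, averaged 1196±298 CPM in WT and 719±485 CPM in WWP2-/- cells with TGFβ1 (SD, n=5 each), and Mmp14, its activator, 1170±434 and 554±192 CPM. Neither passed (adjusted P = 0.331 and 0.0755). All 5 genes of this list called with TGFβ1 were called in each of the 10 fits that left out 1 library. Untreated, Mmp11 was the only gene of the list called, at −2.76 (adjusted P = 0.0313, edgeR), against 0.725% of all genes, and it was called in 2 of 10 such fits. Of the synapsin genes that host TIMPs, Syn1 rose by 1.48 with TGFβ1 (SE 0.301, adjusted P = 0.0123), from 4.75±1.91 to 13.2±5.88 CPM (SD, n=5 each).

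**Figure D5:**
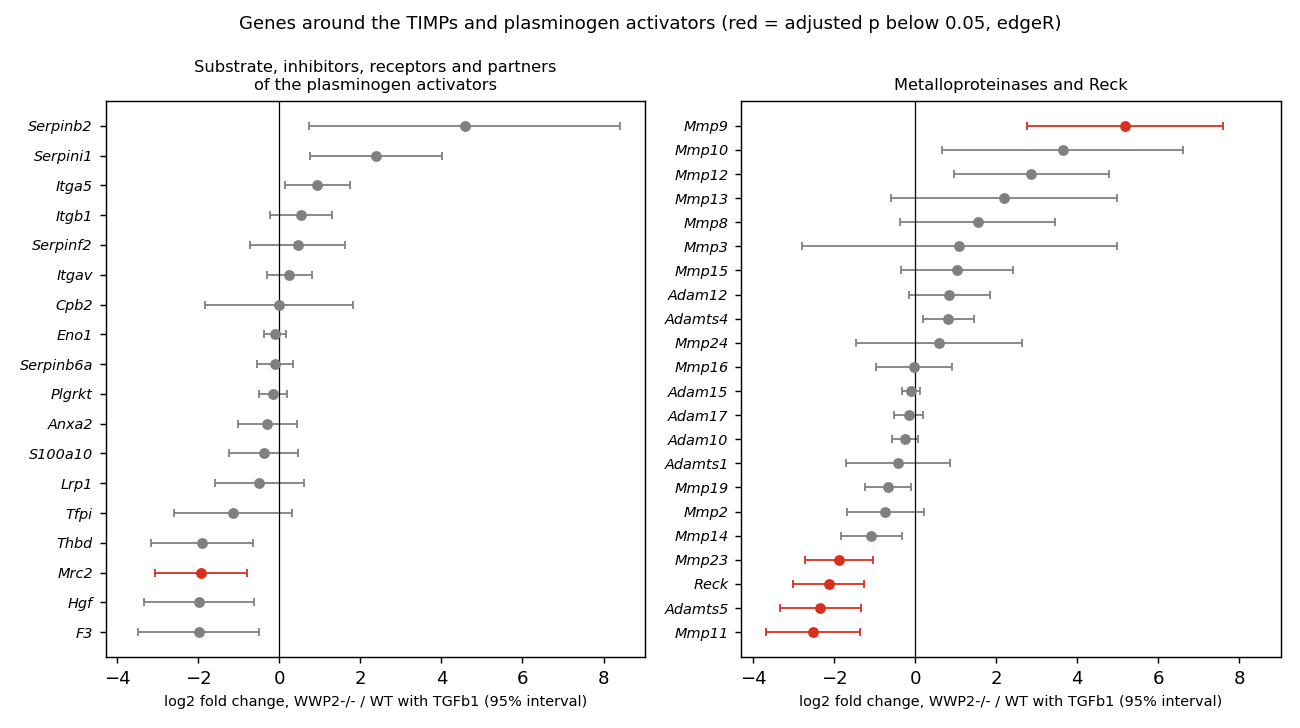
Log2 fold changes between WWP2-/- and WT cells with TGFβ1 for the tested partners of the plasminogen activators (left, 18 genes) and for metalloproteinases and Reck (right, 22 genes), with 95% intervals and red for an adjusted P below 0.05 (edgeR). Mmp9 is the called gene above 0, and Mrc2, Mmp23, Reck, Adamts5 and Mmp11 those below it.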

How the data were processed

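Libraries were made by poly-A selection. The authors used STAR for alignment of the paired-end reads (GRCm38) and featureCounts for counting on exons. The deposited values are raw counts per gene in 20 libraries, with no normalization and no pooling of replicates. Tool versions and the strand setting are not given in the sources used here. Genotype, treatment and replicate number come from the sample labels. The genes were named from GENCODE release M21 on GRCm38, which names 51633 of 51826 identifiers, and levels per kilobase use its exon lengths.

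A gene was tested if 5 or more libraries had 5 or more counts. R 4.3.3 with edgeR 4.0.16 was used for TMM scaling, glmQLFit and glmQLFTest, with 4 groups in 1 fit and no block. The contrasts were TGFβ1 against untreated in each genotype, WWP2-/- against WT in each condition, and their interaction. Single genes were also compared by exact two-sided permutation over 252 arrangements. Alternatives were DESeq2 1.42.0, other filters, scalings and thresholds, Xist as a covariate, a block for the replicate number, and each library left out. Correlations used log2 CPM with a pseudocount of 2. Intervals are at 95%. Promoter windows come from RefSeq for GRCm38.p6. The test was checked on simulated data.

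Named genes were the 8 members, Wwp2, the 2 genes most like each member, the synapsin hosts, and the genes called in the lists of partners, up to 4 in each direction with the largest change. Mmp2, Mmp14, Plg, Serpinb2 and Cdh16 were named after their values were seen. The members and all lists were chosen with earlier results of these data known. A gene of the plasminogen list is not reported here. Other measurements of the study were not analysed here.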

Additional observations from a re-analysis of the deposited data

Results flagged for a closer look

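In a screen of 32 groups of 5 libraries, 1 value lay apart from its group. Plat was at 44.7 CPM in untreated WWP2-/- replicate 3, against 404 to 549 CPM in the other 4 libraries. Its gap to the nearest library was 0.713 of the whole range, just above the critical value of 0.71, and chance marks about 1 in 20 groups. This is 1 of the 2 libraries with low Acta2 (38.9 CPM). The part of that in the value was not tested.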

How the results depend on the processing

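No member was called in either TGFβ1 contrast, in untreated WWP2-/- against WT cells or in the interaction under any alternative run. With TGFβ1, the count of members called in WWP2-/- against WT cells was 0 in the edgeR fit, 2 by the DESeq2 Wald test (Timp2, Plaur), 3 without the pair of libraries with low Acta2 (Timp2, Timp4, Serpine2), and between 0 and 2 when 1 library was left out. Leaving out 1 library gave 480 values of members, of which 449 kept their direction and side of the threshold, 3 were newly called and 28 changed sign.

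For genes around the plasminogen activators, the count with TGFβ1 was 1 in the edgeR fit, 6 by DESeq2, 0 with no filter on low counts, 2 with Xist as a covariate, 0 with only the groups compared, 0 at an adjusted P of 0.01, 5 without the pair with low Acta2 and 0 with Xist as a covariate added to that. It was between 0 and 4 with 1 library left out. Untreated it was 0, and 1 by DESeq2, with Xist as a covariate and with Xist and the pair left out, and between 0 and 1 with 1 library left out. For metalloproteinases and Reck, the count with TGFβ1 was 5, against 8 by DESeq2, 3 with Xist as a covariate, 0 at an adjusted P of 0.01, 9 without the pair and 0 with Xist in addition, and between 5 and 8 with 1 library left out. Untreated it was 1, against 4 by DESeq2, 0 with Xist as a covariate, 0 with only the groups compared, 0 at an adjusted P of 0.01, 2 without the pair and 0 with Xist in addition, and between 0 and 4 with 1 library left out. The cause of these shifts was not tested.

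Over all genes, the count with TGFβ1 was 1238 in the edgeR fit, 2672 by DESeq2, 790 with no filter on low counts, 670 with the replicate block, 715 with Xist as a covariate, 534 with only the groups compared, 101 at an adjusted P of 0.01 and 3454 without the pair. It was between 464 and 2702 with 1 library left out. Untreated it was 148, against 743 by DESeq2, 92 with Xist as a covariate, 1 with the replicate block, 1 with only the groups compared, 1 at an adjusted P of 0.01 and 270 without the pair. With Xist as a covariate added to that, it was 9 untreated and 5 with TGFβ1. With 1 library left out it was between 1 and 744 untreated. The 744 came without WT replicate 4, the fit in which the untreated count of metalloproteinases and Reck was 4. Library totals in place of TMM moved the median log2 fold change of all genes with TGFβ1 from 0.05 to 0.18.

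Several log2 fold changes that were not called in the edgeR fit of all libraries changed sign. With Xist as a covariate, Serpine2 (−0.0378) and Plat (−1.04) did in WWP2-/- against WT cells with TGFβ1, Plat (−0.39) untreated and Timp3 (−0.00915) in the interaction. With library totals, Plat did in WT cells with TGFβ1 (−0.0697) and Plau between genotypes with TGFβ1 (0.0437). Without the pair, Plau was at 0.11 there. With the pair left out and Xist as a covariate, Timp2 (0.11) and Timp4 (0.00738) reversed untreated, and Mrc2, called in the edgeR fit, was at 0.0620 with TGFβ1.

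With 1 library left out, the TGFβ1 contrast in WT cells ranged from −0.72 to 0.29 for Timp4, −0.0311 to 0.18 for Plat and −0.0223 to 0.29 for Timp2. In WWP2-/- cells it ranged from −0.74 to 0.00359 for Plau, −0.57 to 0.0618 for Plat and −0.10 to 0.96 for Timp3. WWP2-/- against WT ranged with TGFβ1 from −0.46 to 0.11 for Plau and −0.32 to 0.30 for Plat, and untreated from −0.70 to 0.00449 for Plau. The interaction ranged from −1.58 to 0.17 for Timp4, −0.19 to 0.57 for Plau, −0.58 to 0.48 for Timp3 and −0.61 to 0.0259 for Plat.

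The replicate numbers were checked for pairing. Of 20 same-numbered pairs of groups, 11 correlated above 0.1 and 6 correlated best with their own number. The same-numbered correlations lay between −0.54 and 0.53. Higher values occurred across unlike numbers. Untreated WWP2-/- replicates 3 and 2 correlated at 0.95 and 0.89 with treated WWP2-/- replicates 1 and 5. Untreated WT replicate 4 correlated at 0.77 with treated WT replicate 3. Among the pairs that correlated best with their own number were untreated WT replicates 1, 2, 3 and 5, matched with untreated WWP2-/- cells (r between 0.22 and 0.45). The labels give only the number, so whether libraries were paired was not settled. A block by number may therefore not match the cultures, and a pairing across unlike numbers was not tested. With the replicate block, no member was called, the count of plasminogen genes with TGFβ1 was 0, the count of metalloproteinases untreated was 0, and Plat (−0.0575) with TGFβ1 and Timp3 (−0.21) in the interaction changed sign. With the replicate block within genotype, Timp3 changed sign in WWP2-/- cells with TGFβ1 (−0.0239) and in the interaction (−0.57).

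Depth limited Timp4, at no more than 22 counts per library.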
